A study of Mus musculus with 12 samples.

Results

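Keratins are the intermediate filament proteins of epithelial cells, and the 51 mouse genes whose symbol is Krt followed by a number were read here across 12 libraries of peeled urothelium, the epithelial lining of the bladder. They were chosen by symbol alone, without keratin-associated protein genes, from 23337 genes in the count tables. The mice carried Stag2, a gene for a cohesin subunit, in the WT or the inactivated (KO) state, and all of them, WT included, had received food with TMX, the inducing agent, for a week. Each genotype was sampled at 1 week and again at 1 month, which makes 4 groups of 3 libraries, with a separate animal name for each library. Replicate numbers are only names given in accession order and pair nothing. The promoter that drives recombination, the strain, the age and the sex of the animals are not given in the sources used here.

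A keratin filament is built from 1 type I and 1 type II chain, so the genes work in pairs. In stratified epithelia Krt5 (type II) pairs with Krt14 or Krt15 (type I) in basal cells that rest on the basement membrane. Krt8 and Krt18 pair in simple and luminal epithelia, where Krt7 and Krt19 also occur. In the bladder Krt20 marks the superficial umbrella cells. Krt6a, Krt6b, Krt16 and Krt17 are known as keratins of wounded or stressed squamous epithelium.

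Of the 51 genes, 50 were matched in GENCODE M21 on GRCm38, the assembly also called mm10. The 27 genes on chromosome 11 lie within chr11:99232761-100269871 and the 23 on chromosome 15 within chr15:101347444-102032027. The promoters of 5 of the genes the results turn on are shown next, as the 100 bases before the RefSeq transcription start on GRCm38.p6. The coordinates are chr11:99438154-99438253 (minus strand) for Krt20, chr15:101712906-101713005 (minus) for Krt5, chr15:102028116-102028215 (plus) for Krt18, chr11:99493121-99493220 (minus) for Krt23 and chr15:101954288-101954387 (minus) for Krt78. Capitals mark TATAAA or ATAAAA, the letters searched for as TATA-type motifs. In the Krt20 sequence the matches to TATAAA and ATAAAA overlap and are capitalised together.
Krt20: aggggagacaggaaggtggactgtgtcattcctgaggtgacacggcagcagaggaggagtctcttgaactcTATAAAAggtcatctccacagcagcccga
Krt5: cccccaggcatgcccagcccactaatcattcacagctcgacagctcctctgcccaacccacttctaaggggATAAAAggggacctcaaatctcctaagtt
Krt18: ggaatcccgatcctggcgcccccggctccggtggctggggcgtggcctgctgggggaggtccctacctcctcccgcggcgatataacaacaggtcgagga
Krt23: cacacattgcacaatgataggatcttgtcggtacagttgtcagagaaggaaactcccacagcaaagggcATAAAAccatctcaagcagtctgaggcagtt
Krt78: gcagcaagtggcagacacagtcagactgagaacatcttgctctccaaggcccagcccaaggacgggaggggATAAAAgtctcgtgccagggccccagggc

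Searched on both strands, TATAAA was in 15 of 35 keratin promoter entries (34 genes, 42.9%) and in 5.56% of 32851 RefSeq promoter windows of the same length. ATAAAA was also in 15 of the 35 entries (42.9%), against 7.07% of all windows. Neither is in the window of Krt18, which is lower in every KO library at 1 month like Krt20, whose window holds both. Among keratins that passed the filter on low counts described below, only the windows of Krt10 and Krt20 held TATAAA. Most other entries with TATAAA were of hair keratins, which had few or no counts here. Krt1, Krt4, Krt6a, Krt15 and Krt19 had no promoter entry. The motifs were chosen after the expression values had been seen, and a match describes letters only.

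The libraries held 8157069 to 9497088 counts for WT at 1 week, 5620137 to 8672620 for KO at 1 week, 5940242 to 6626132 for WT at 1 month and 5580961 to 8308467 for KO at 1 month. Values are given as CPM, counts relative to library size scaled by TMM factors computed separately for each time, so levels are compared within a time. The reads are tags from transcript 3′ ends, so CPM needed no division by gene length. All 1-week libraries belong to sequencing batch 1 as labelled. At 1 month replicates 1 and 2 of each genotype are batch 2 and replicate 3 of each is batch 3. Stag2 was 127 ± 23.8 CPM in WT and 68.7 ± 7.56 in KO at 1 week (SD, n = 3 each), and 55.7 ± 8.32 against 31.2 ± 10.3 at 1 month. Every KO library was below every WT library at both times, but edgeR's quasi-likelihood test gave adjusted p = 0.198 and 0.0507. Which part of Stag2 is deleted is not given, so whether the 3′ tag lies inside it is unknown. At 1 week all KO libraries held 6392 to 10406 counts of the female-specific Xist and all WT libraries 1 to 13, so genotype and sex cannot be told apart there. At 1 month KO replicate 3 was the 1 library with the female pattern, at 7764 Xist counts. Batch 3 holds this library and WT replicate 3, at 11 Xist counts. In batch 3 differences genotype and sex therefore cannot be told apart either. KO replicate 3 at 1 week stood apart, with Spearman correlations of 0.741 to 0.838 to the other 1-week libraries over 13108 genes.

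Among the 51 keratins, 13 had 0 counts in every library, 21 reached a highest count of 1 to 14, and 17 reached 15 or more in at least 1 library. Among the 23 keratins of hair and hair follicle 9 were at 0 throughout, and the highest count of any was 14. The filter on low counts passed 15 keratins at 1 week and 13 at 1 month, and the 13 were all among the 15. The other 36 and 38 were left out of the main tests. A count of 3 corresponds to 0.311 to 0.612 CPM on the TMM scale, depending on the library. Such a limit covers counting error only.

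The 8 abundant keratins had the same leader by group mean in every group. In WT at 1 week Krt15, a basal type I keratin, was at 3593 ± 671 CPM (SD, n = 3) and ranked 18 among all genes. Next came Krt7, the simple type II keratin of urothelium, at 1754 ± 181, then Krt18, Krt8, Krt19, Krt5, Krt4 and Krt20. Krt8 and Krt19 overlapped in WT libraries, and no other neighbours in that order did. In KO at 1 month Krt20 was the last of the 8 and its libraries did not overlap those of Krt4, a mucosal type II keratin, above it. In WT at 1 month the ranges of Krt20, Krt4 and Krt5 overlapped. Together the keratins took 0.909% to 0.978% of all counts in WT at 1 week and 0.652% to 1.34% in KO. At 1 month the shares were 0.835% to 0.931% in WT and 0.956% to 1.13% in KO. At 1 month summed keratin CPM was 9418 ± 319 in WT and 9679 ± 259 in KO (SD, n = 3 each). With library size alone as the scale these sums were 8726 and 10477.

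**Figure D1:**
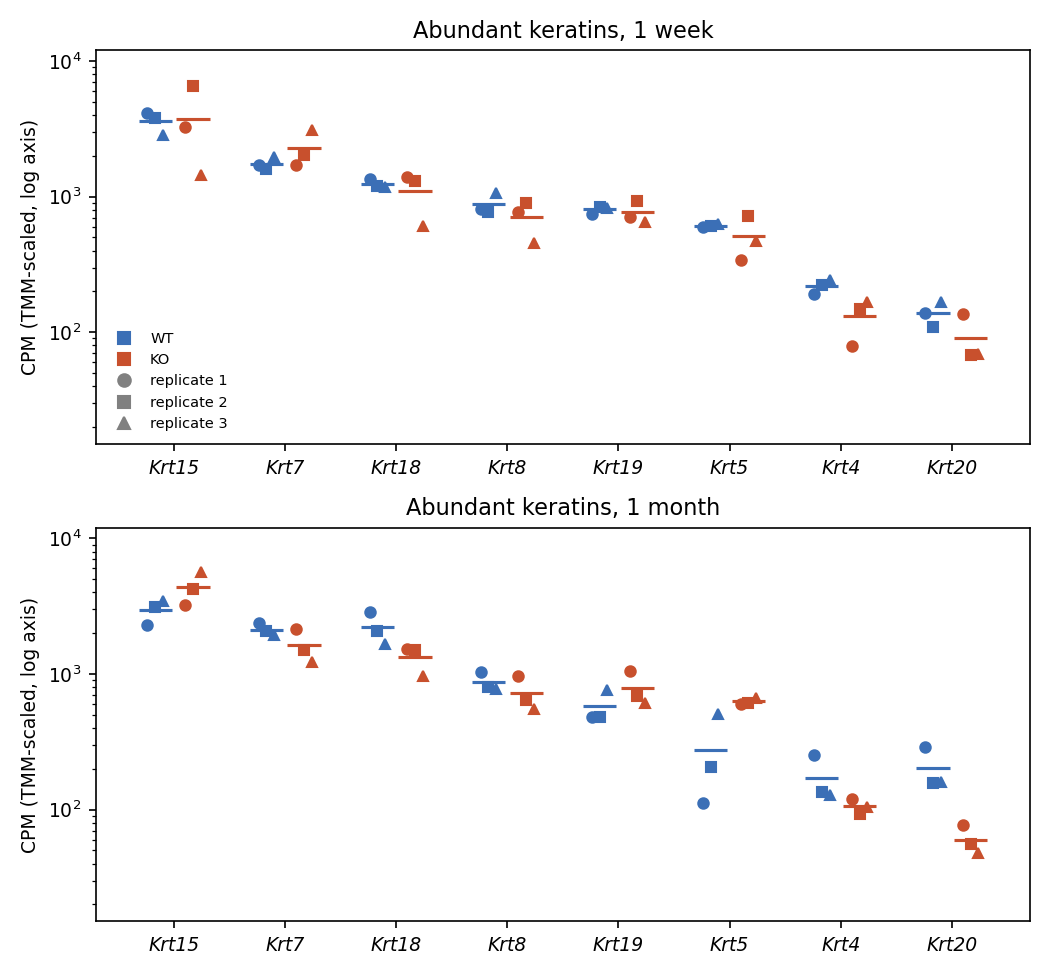
TMM-scaled CPM (log axis) of the 8 abundant keratins in each library at 1 week (top) and 1 month (bottom), WT in blue and KO in red, with the replicate as the symbol and the group mean as a line. Krt15 has the highest mean in every group, and at 1 month the 3 KO points of Krt20 lie below the 3 WT points.

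At 1 month 1 keratin passed the test and it fell: Krt20, the umbrella cell keratin, was 3.38-fold lower in KO urothelium. The count is 1 of 13 tested keratins at adjusted p under 0.05, and 2.22% of all 12139 genes tested passed that threshold (1.22% lower, 0.997% higher). The basal keratin Krt5 was higher and the simple keratin Krt18 lower in every KO library, but neither passed. Genotypes did not overlap for 5 of the 13: Krt5 above, and Krt20, Krt18, Krt4 and Krt79 below. Over all genes 13.3% did not overlap (5.68% higher, 7.61% lower). The median log2 fold change was 0.16 over the 13 keratins, 7 of them positive, and -0.01 over all genes.

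Krt20 (chr11:99428403-99438150, minus strand), whose promoter is shown above, was at 291, 157.5 and 159.9 CPM in the WT libraries and 76.6, 55.6 and 47.6 CPM in the KO libraries at 1 month. The lowest WT library was well above the highest KO library. The means were 203 ± 76.5 and 59.95 ± 15.0 CPM (SD, n = 3 each). The fitted log2 fold change was -1.76 with an SE of 0.25, and edgeR's quasi-likelihood test gave adjusted p = 0.00601. The difference was -1.71 in batch 2 and -1.74 in batch 3 on the log2 scale. The batch 3 value rests on 1 library of each genotype, which also differ in sex pattern. The call held in 14 of 16 alternatives, with log2 fold changes of -1.98 to -1.46 among them. Leaving out WT or KO replicate 3 leaves 1 library in batch 3, which the batch term absorbs. Those fits and the alternative of batch 2 alone are therefore the same comparison of batch 2 libraries and not separate support. It was lost without the batch term (edgeR adjusted p = 0.221) and in the fit of all 12 libraries (0.199), 2 fits in which 0 of 12139 and 0 of 13122 genes passed.

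Umbrella cells are also defined by uroplakins, the membrane proteins of the apical plaque, whose sum was also lower in mean in KO. The summed CPM of Upk1a, Upk1b, Upk2, Upk3a and Upk3b at 1 month was 22619, 13494 and 10350 in WT libraries, against 10652, 8266 and 7204 in KO libraries. The highest KO sum lay just above the lowest WT sum. None of the 5 passed the test (2.22% of all genes did), all 5 had negative log2 fold changes, and their median was -0.60. Per 1000 CPM of uroplakins, Krt20 was at 12.9, 11.7 and 15.4 CPM in WT and 7.19, 6.73 and 6.61 in KO. Krt20 per uroplakin was therefore lower in every KO library as well, a ratio chosen after the values were seen. At 1 week this ratio was 17.9, 16.0 and 18.5 in WT and 15.2, 14.8 and 8.46 in KO, also without overlap. Relative to Upk3a alone, Krt20 at 1 week was 0.0512 to 0.0682 in WT and 0.0529, 0.0530 and 0.410 in KO. At 1 week the ratio therefore depends on the uroplakins used. At 1 month Krt20 relative to Upk3a alone was 0.0446 to 0.0670 in WT and 0.0196 to 0.0333 in KO, without overlap. In bulk tissue, fewer cells of a type and less RNA per cell cannot be told apart.

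Krt5 (chr15:101707070-101712898, minus strand), the type II keratin of basal cells, was at 111, 206 and 504 CPM in WT and 603, 615 and 671 CPM in KO at 1 month. Every KO library was above every WT library, and the WT libraries were spread widely, with the batch 3 library highest. Means were 274 ± 205 and 629.8 ± 36.2 CPM (SD, n = 3 each), and the log2 fold change was 1.44 with an SE of 0.34 (edgeR adjusted p = 0.0505). The difference was 2.01 in batch 2 and 0.41 in batch 3. The adjusted p fell on either side of the threshold: 8 of 16 alternatives passed it. It was 3.72e-04 with DESeq2, 8.15e-04 without WT replicate 3 and 9.12e-04 without KO replicate 3 (edgeR), and 0.158 without WT replicate 1 and 0.182 without WT replicate 2 (edgeR). The fits without WT or KO replicate 3 compare batch 2 libraries only, as does the alternative of batch 2 alone, so they are not separate support.

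Krt15, the basal type I keratin and the partner of Krt5, was at 2296, 3096 and 3458 CPM in WT and 3213, 4214 and 5650 CPM in KO at 1 month. The genotypes overlapped, and the log2 fold change was 0.55 (SE 0.27, edgeR adjusted p = 0.260). Krt14, the other type I basal keratin, stayed between 0.797 and 3.20 CPM in all 6 libraries and did not pass the filter. The ratio of Krt5 to Krt20 CPM was 0.382, 1.31 and 3.15 in WT and 7.87, 11.1 and 14.1 in KO. Because Krt5 was above and Krt20 below WT in every KO library, this ratio could not overlap, and it adds no separate result.

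The simple keratins were led at 1 month by Krt7 and Krt18. Krt18 (chr15:102028180-102032027, plus strand), the type I partner of Krt8, was at 2874, 2087 and 1660 CPM in WT and 1529, 1513 and 968 CPM in KO. Every KO library was lower; the log2 fold change was -0.73 with an SE of 0.24 (edgeR adjusted p = 0.120). The difference was -0.69 in batch 2 and -0.78 in batch 3, and the DESeq2 test, which called 6.43% of all genes and 3 of 13 keratins (Krt5, Krt18 and Krt20), gave adjusted p = 0.0191. Krt8, its type II partner, was at 1029, 799 and 772.5 CPM in WT and 970.5, 645 and 554 in KO, overlapping (log2 fold change -0.28, edgeR adjusted p = 0.530). Krt7 had a log2 fold change of -0.40 (edgeR adjusted p = 0.376). Krt19, a type I keratin without a tail domain, had 0.47 (edgeR adjusted p = 0.363), being 0.83 in batch 2 and -0.33 in batch 3. Krt23, a low type I keratin, was between 2.55 and 8.24 CPM in all 6 libraries.

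**Figure D2:**
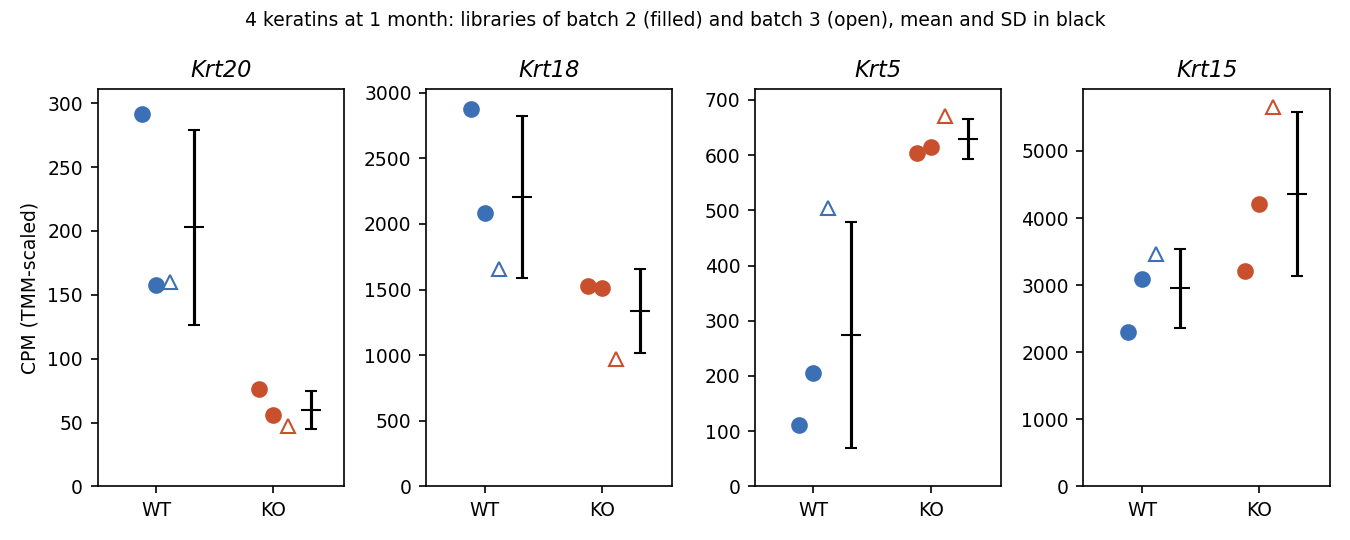
TMM-scaled CPM of Krt20, Krt18, Krt5 and Krt15 at 1 month, with batch 2 libraries filled, batch 3 libraries open, and the mean and SD of each genotype in black. The KO points of Krt20 and Krt18 lie below all WT points and those of Krt5 above, while Krt15 overlaps. The open WT point of Krt5 is the highest of its genotype.

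Of the other keratins at 1 month, Krt4 was at 251, 134.5 and 127 CPM in WT and 120.4, 92.9 and 104 in KO. These did not overlap, but the log2 fold change of -0.66 (SE 0.26) did not pass (edgeR adjusted p = 0.163). Krt79, a low type II keratin of the cornified list, was 7.06 ± 1.06 CPM in WT and 4.63 ± 0.377 in KO (SD, n = 3 each), with edgeR adjusted p = 0.344. Krt6a reached at most 2 counts in any 1-month library, and Krt13, the mucosal type I partner of Krt4, was at 0 in all 6.

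At 1 week none of the 15 tested keratins passed the main test. In every KO library 3 keratins were above, and 3 others below, all WT libraries. The count of 0 of 15 at adjusted p under 0.05 stands beside 0.0627% of all 12754 genes tested (0.0157% higher, 0.047% lower). At an unadjusted p under 0.05 edgeR gave 6 of 15 (15.5% of all genes), and the DESeq2 test called 5 of 15 at its adjusted p (7.5% of all genes): Krt6a, Krt14, Krt23 and Krt78 higher and Krt1 lower. With all 12 libraries in one edgeR fit 5 of 16 keratins passed (4.21% of all genes), and without KO replicate 3, the library that stood apart, none of 16 did (2.45%). Krt6a, Krt23 and Krt78 were above, and Krt1, Krt4 and Krt10 below, every WT library, 6 of 15 keratins against 26.6% of all genes (14.1% higher, 12.5% lower). Krt6a, with 0 counts in every WT library, passed the filter only through KO. Krt1, with 6, 2 and 3 counts in KO, passed it only through WT. Krt14 passed mainly through KO, with 4, 5 and 27 counts in WT. The places of these keratins among the 15 therefore rest on the genotype in which they are high, and their separation is no independent support. The median log2 fold change of the 15 was -0.07, against 0.02 for all genes. In simulated 1-week data the same test found 17.5% of genes changed 4-fold among 12754. For simulated 1-month data the figure was 92.5% among 12139, so counts called at the 2 times are not alike in sensitivity.

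Krt6a (chr15:101689910-101694307), the stress-type type II keratin, had 0 counts in each of the 3 WT libraries and 20, 398 and 103 counts in the KO libraries, or 2.70, 43.9 and 21.0 CPM. The KO mean of 22.5 ± 20.6 CPM (SD, n = 3) was at least 66.0-fold higher than the level of 3 counts per WT library. That bound was 34.7-fold without KO replicate 2 and 7.90-fold for the lowest KO library. edgeR gave adjusted p = 0.115 and DESeq2 2.14e-08. The other stress-type keratins were nearly silent. Krt16, the partner of Krt6a, was at 0 in every library of the series. Krt17 had 1 count in 1 WT library, and Krt6b had 3 counts in 1 KO library.

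Krt14 (chr11:100203162-100207548), the basal type I keratin, was counted 4, 5 and 27 times in the WT libraries of 1 week and 17, 402 and 912 times in the KO libraries, or 0.485, 0.583 and 2.79 CPM against 2.29, 44.3 and 186 CPM. KO replicate 1 lay within the WT range and the other KO libraries far above it. The log2 fold change was 5.87 (SE 1.53), with adjusted p = 0.158 by edgeR and 5.29e-05 by DESeq2. Without KO replicate 3 the log2 fold change was 4.11 (edgeR adjusted p = 0.106). Krt5, its type II partner, was at 594, 611 and 625 CPM in WT and 341, 715.5 and 469.7 CPM in KO, so it had no common direction (edgeR adjusted p = 0.723). The ratio of Krt5 to Krt14 was 1223, 1048 and 224 in WT and 149, 16.1 and 2.53 in KO.

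Krt23 was at 7.16, 6.64 and 7.87 CPM in WT and 12.8, 86.96 and 100.7 CPM in KO at 1 week. All KO libraries were higher, 2 of them by far, and edgeR put the log2 fold change at 3.21, with an SE of 0.72 and adjusted p = 0.126. Without KO replicate 1, whose level was the closest to WT, edgeR gave adjusted p = 0.0199, and Krt23 was then the 1 keratin called (0.429% of all genes). Krt78, a type II keratin, was at 11.7, 12.7 and 10.4 CPM in WT and 20.2, 49.5 and 174 CPM in KO. Its log2 fold change was 2.81 (SE 0.75, edgeR adjusted p = 0.159) with KO replicate 3 and 1.56 (edgeR adjusted p = 0.0786) without it.

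Of the 7 cornified keratins, Krt1, Krt10 and Krt79 passed the filter at 1 week, and none of the 3 passed the test. Krt1 and Krt10 are the suprabasal pair of skin. Krt1 was at 2.18, 3.96 and 5.90 CPM in WT and 0.809, 0.220 and 0.612 in KO, without overlap (log2 fold change -2.88, SE 0.68, edgeR adjusted p = 0.137). Krt10 was 8.10 ± 1.97 CPM in WT and 3.52 ± 0.556 in KO (SD, n = 3 each; edgeR adjusted p = 0.221). Krt79 overlapped between genotypes, with a log2 fold change of 0.05 (edgeR adjusted p = 0.972). Krt80, a cornified keratin under the filter, was 0.468 CPM in mean in WT and 1.55 in KO, also overlapping. Krt4 was at 191, 222 and 244 CPM in WT and 79.7, 148 and 167 CPM in KO, also without overlap (edgeR adjusted p = 0.358).

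**Figure D3:**
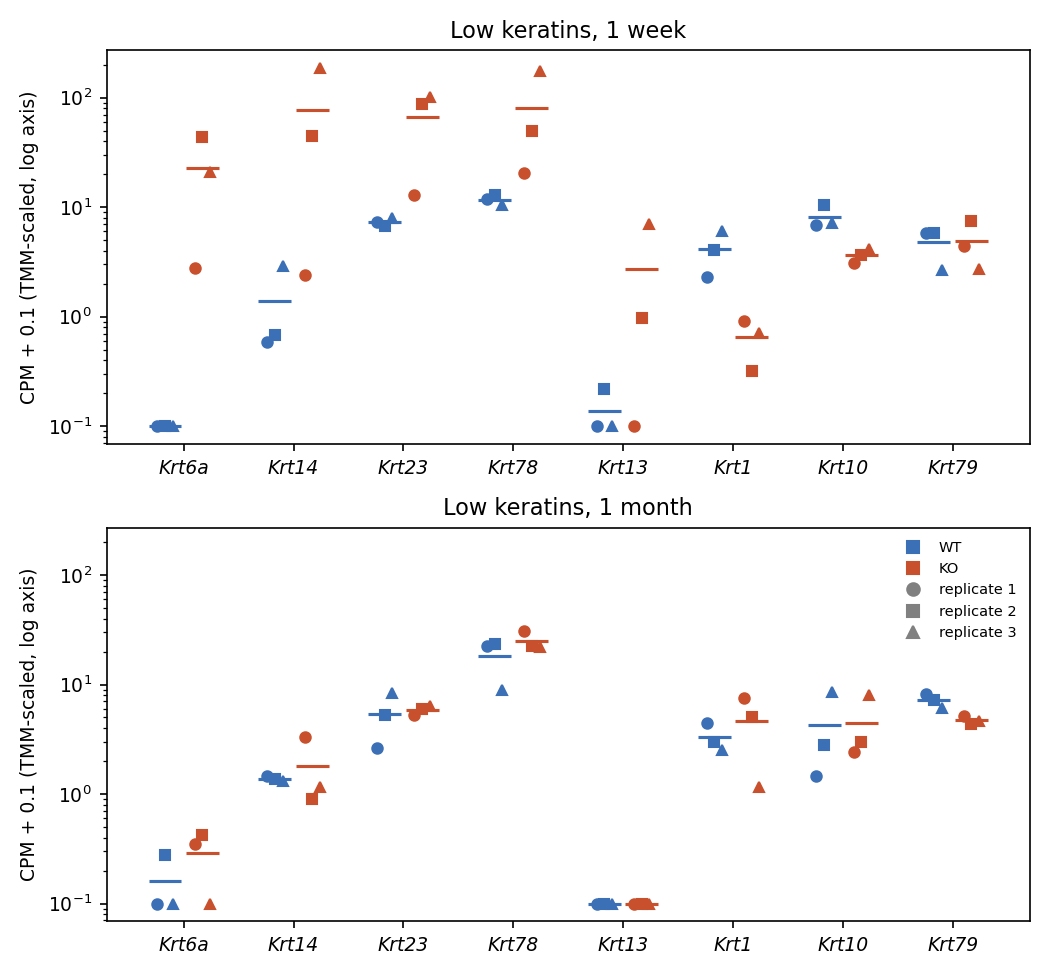
TMM-scaled CPM plus 0.1 (log axis) of 8 low keratins in each library at 1 week (top) and 1 month (bottom), WT in blue and KO in red, with the replicate as the symbol and the group mean as a line. At 1 week Krt6a, Krt23 and Krt78 lie higher in all 3 KO libraries and Krt1 and Krt10 lower; Krt14 overlaps through KO replicate 1.

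The abundant keratins showed no common direction at 1 week. Krt20 was at 138, 110 and 166 CPM in WT and 136, 68.3 and 69.1 CPM in KO, overlapping through 1 KO library (log2 fold change -0.60, SE 0.37, edgeR adjusted p = 0.457). Krt15 was at 4116, 3826 and 2836 CPM in WT and 3267, 6497 and 1444 CPM in KO, so KO libraries lay on both sides of WT. Krt18, Krt8 and Krt19 had log2 fold changes of -0.18, -0.31 and -0.07, and Krt7 had 0.38, with edgeR adjusted p from 0.593 to 0.925. KO replicate 3 was the lowest library for Krt15, Krt18 and Krt8 and the highest for Krt7, Krt14, Krt23 and Krt78.

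Other marker lists differed between the same libraries at 1 week. The summed CPM of 6 genes of dividing cells was 16.8 to 18.4 in WT and 105, 696 and 498 in KO. None of the 6 passed the test, beside 0.0627% of all genes. KO replicate 1 had the lowest such sum in KO and also the lowest Krt6a, Krt14, Krt23 and Krt78, although Birc5, 1 of the 6, was lower in KO replicate 3 (4.28 CPM) than in KO replicate 1 (7.01 CPM). Krt5 (341 CPM) and Krt4 (79.7 CPM), which were not raised in KO as a group, were also lowest in KO replicate 1 among KO libraries. The sum and Krt6a were highest in KO replicate 2, but Krt14, Krt23 and Krt78 in KO replicate 3. The sum of 9 cornified squamous markers was 1953 to 2666 CPM in WT and 2093 to 3673 in KO, overlapping. Most of it was Sprr1a, at 2036 CPM in the WT mean. Sprr1b and Sprr3 were at 0 in WT and reached at most 2 counts in any KO library. Of the 4 squamous markers tested, 3 had positive log2 fold changes and Krtdap a negative one (-1.08). Ivl (217 to 253 CPM in WT, 284 to 554 in KO) and Sbsn (19.4 to 22.7 and 26.3 to 54.6) were higher in every KO library, beside 14.1% of all genes. Sprr1a and Krtdap overlapped, and none of the 4 passed, beside 0.0627% of all genes. Stromal markers summed to 3497 to 5778 CPM in WT and 4947 to 10777 in KO, and leukocyte markers to 135 to 225 and 243 to 469. The sum of 3 endothelial markers was 128 to 142 CPM in WT and 207 to 365 in KO at 1 week. At 1 month it was 65.0 to 113 in WT and 130 to 267 in KO. Neither time showed overlap. None of the 3 was called, beside 0.0627% of all genes at 1 week and 2.22% at 1 month. At 1 month the leukocyte sum was 492 to 1034 in WT and 209 to 311 in KO. By edgeR 3 of 5 tested markers were lower at adjusted p under 0.05, beside 1.22% of all genes. The stromal sum was then 10398 to 13492 in WT and 7972 to 9474 in KO. Of its 10 genes 1, Pdgfrb, passed as higher (edgeR adjusted p = 0.0218), beside 0.997% of all genes. The part of these cells in the keratin values was not tested.

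**Figure D4:**
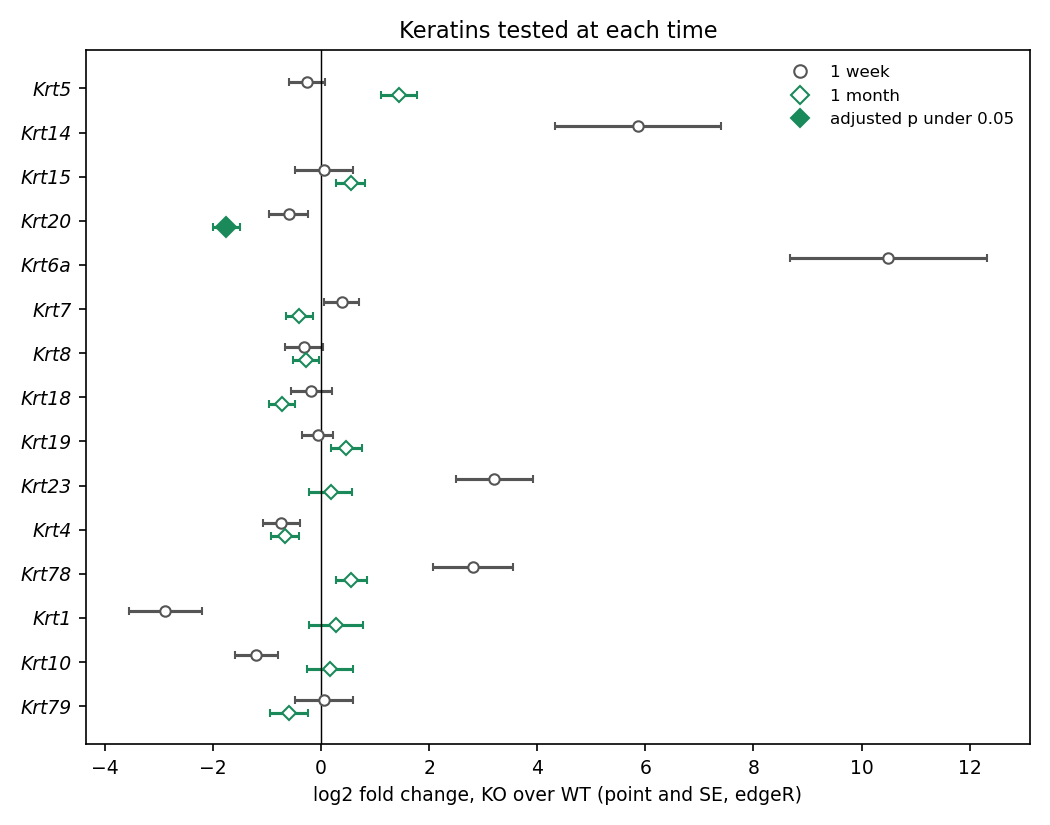
Log2 fold change of KO over WT with its SE (edgeR) for each tested keratin, at 1 week in grey circles and 1 month in green diamonds, filled where adjusted p was under 0.05. Krt20 at 1 month is the filled point; Krt6a, Krt14, Krt23 and Krt78 lie to the right at 1 week.

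Whether the genotype difference itself changed between the times was tested as an interaction over all 12 libraries. None of 16 keratins passed with edgeR, against 0.0% of 13122 genes, and 7 of 16 had an unadjusted p under 0.05 (19.9% of all genes). DESeq2 called 5 of 16 (6.99% of all genes): Krt1 and Krt5 more positive at 1 month, and Krt6a, Krt14 and Krt23 more negative. At 1 week all KO libraries had the female pattern and all WT libraries the male one, while at 1 month only KO replicate 3 was female. A change between times therefore cannot be told apart from this change in sex pattern. Krt6a and Krt14 did not pass the filter at 1 month, so their interaction values rest mainly on the 1-week libraries. For Krt20 the interaction was -1.14 on the log2 scale (edgeR adjusted p = 0.223) and for Krt5 1.71 (edgeR adjusted p = 0.147). The test of Krt20 at 1 month alone therefore does not show that its difference was larger than at 1 week. In simulated data the edgeR interaction test found 0 of 200 genes changed 4-fold.

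**Figure D5:**
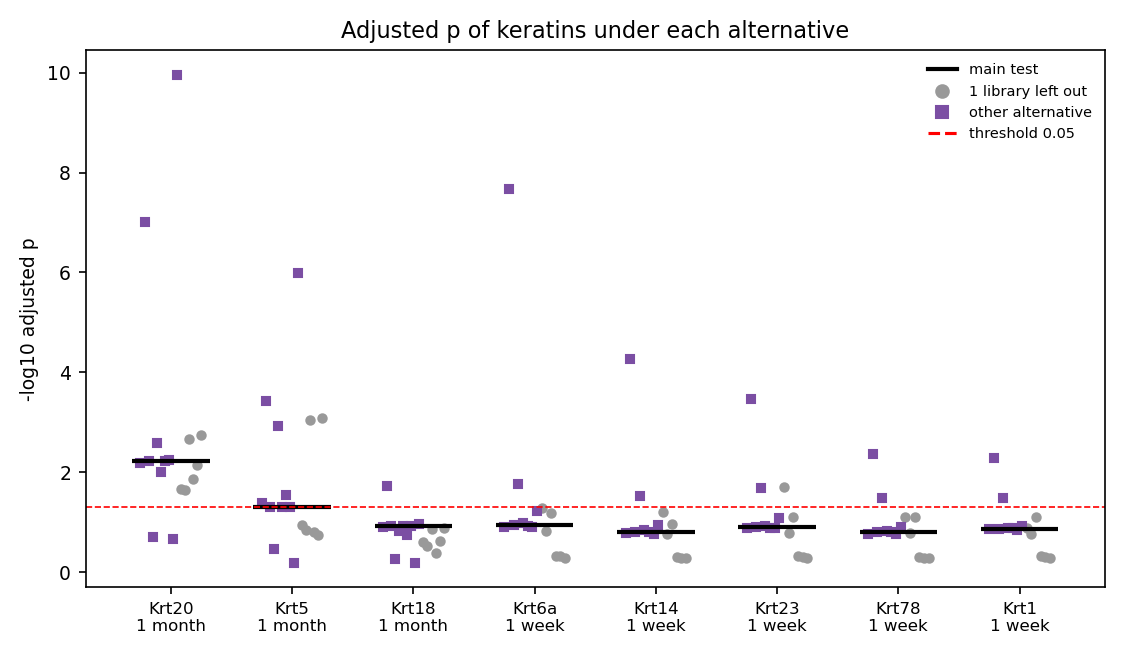
Adjusted p (as -log10) of 8 keratins under the main test (black line), with 1 library left out (grey circles) and under other alternatives (purple squares), with the 0.05 threshold in red. Krt20 at 1 month stays above the threshold in 14 of 16 alternatives, and Krt5 in 8 of 16.

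Keratin filaments attach to desmosomes and are linked by plakins. The list of 15 keratin partners, all tested at both times, also holds genes of other kinds, such as Vim. Vim encodes another intermediate filament protein and had log2 fold changes of 1.30 at 1 week and -0.64 at 1 month. At 1 month 1 of the 15 fell, beside 2.22% of all genes called: Dsp, which encodes desmoplakin, the desmosomal anchor of keratin filaments, was 309.9 ± 45.6 CPM in WT and 129 ± 14.6 in KO (SD, n = 3 each). edgeR put the log2 fold change at -1.26, with an SE of 0.21 and adjusted p = 0.0132. Within batches the difference was -1.43 (batch 2) and -0.92 (batch 3). The call was lost without WT replicate 2 (edgeR adjusted p = 0.0673) or KO replicate 1 (0.0733), without the batch term (0.221) and in the fit of all 12 libraries (0.474). Of the partner genes 13 had negative and 2 positive log2 fold changes at 1 month, with a median of -0.35; over all genes 6116 were negative and 6023 positive. At 1 week none passed (0.0627% of all genes), 11 were positive and 4 negative, and the median was 0.38. Over all genes 6565 were positive and 6189 negative. The summed CPM of the partners at 1 week was 2331 to 3236 in WT and 2953, 2981 and 6037 in KO. KO replicate 3, the library that stood apart, was the highest.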

How the data were processed

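Peeled mouse urothelium was profiled with stranded 3′ tag libraries from total RNA (QuantSeq forward kit, oligo-dT primed), per the labels' protocols. The deposited values are raw gene counts made by the authors with HTSeq; the submitters' processing notes also name Bowtie, TopHat, DESeq2 and mm10, without versions. No molecular identifiers are named. Counts were fitted with edgeR 4.0.16 (R 4.3.3; quasi-likelihood, robust, TMM, filterByExpr), separately at each time, with batch as a term at 1 month, and Benjamini-Hochberg adjustment over all genes (threshold 0.05). SE is the log2 fold change divided by the square root of F. DESeq2 1.42.0, other scalings and filters, and leaving out each library were alternatives; the test was also run on simulated data. Sums and ratios per library are descriptions. WT replicate 3 at 1 month, whose title and library name give different animal numbers, was matched by library name. Named keratins are those of the basal, luminal, stress-type and simple lists, and others called, not overlapping between genotypes or above 50 CPM; partners are named where called. Members and lists were chosen with earlier results of these data known. No 50-base word of the last 300 bases of 49 keratins was shared with another gene in GENCODE M21; read length is not given. The p-values measure the spread between these animals.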

Additional observations from a re-analysis of the deposited data

How the results depend on the processing

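The number of keratins called at 1 week, 0 in the main test, was 5 with DESeq2 (7.5% of all genes called), 5 with all 12 libraries in one fit (4.21%), and 0 to 1 with each library left out in turn (1 without KO replicate 1). At 1 month the count of 1 became 2 with DESeq2 size factors in edgeR (2.41% of all genes), library size only (4.62%), no filter (7.09%), a mean count of at least 20 (2.42%) or batch 2 alone (12.2%), and 3 with DESeq2 (6.43%). It was 0 without the batch term and 0 with all 12 libraries in one fit, where 0.0% of all genes passed, and 1 to 2 with each library left out (2 without WT replicate 3 or KO replicate 3, each with 12.3% of all genes). The fits without either replicate 3 compare batch 2 libraries only and so repeat the batch 2 alternative. The interaction count of 0 was 5 with DESeq2 (6.99%) and 0 to 2 with each library left out (2 without the 1-week KO replicate 1, 1.61%). The summed keratin CPM at 1 month moved to 8726 in WT and 10477 in KO with library size only, which put the median log2 fold change of all genes at 0.22. Signs turned for keratins that did not pass. With 1 library left out at a time, the 1-week log2 fold change of Krt15 ranged from -0.65 (without KO replicate 2) to 0.41 and was -0.13 without WT replicate 3. Krt79 ranged from -0.44 to 0.30 and was -0.28 without WT replicate 3, and Krt18 ranged from -0.40 to 0.065 (without KO replicate 3). At 1 month Krt1 ranged from -0.096 (without WT replicate 2) to 0.80 and was -0.068 without KO replicate 1. Without WT replicate 1, Krt10 was -0.073 and Krt23 -0.14, and these ranged up to 0.35 and 0.50. The cause of these moves was not tested. No paired analysis was possible because the labels give no replicate numbers shared between genotypes. Without the filter 34 keratins entered the 1-week fit and 32 the 1-month fit, with 0 and 2 called.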

Other observations

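Krt13, Krt85 and Krt36, all under the count filter, had counts in most KO libraries at 1 week and few in WT. Krt80, also under the filter, had counts in every library of both genotypes. These keratins were picked after their values were seen. In the 1-week edgeR fit without a filter, adjusted p was 0.230 for Krt13, 0.224 for Krt85, 0.402 for Krt36 and 0.513 for Krt80, so none passed. Krt13, the mucosal type I partner of Krt4, was counted 0, 1 and 0 times in the WT libraries and 0, 8 and 34 times in the KO libraries. For Krt85, a hair keratin, the counts were 0, 1 and 0 (WT) and 3, 6 and 11 (KO). Krt36, another hair keratin, gave 0, 0 and 3 (WT) and 7, 14 and 1 (KO). Krt80, a type II keratin of the cornified list, gave 1, 3 and 9 (WT) and 13, 4 and 12 (KO), so its genotypes overlapped. Other hair keratins had their highest counts in WT. Krt33a gave 0, 4 and 2 (WT) and 0, 0 and 0 (KO), and Krt25 gave 1, 0 and 10 (WT) and 1, 0 and 1 (KO).

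The balance of Krt8 to Krt18, the simple type II and type I pair, at 1 month was 0.358, 0.383 and 0.465 in WT and 0.635, 0.426 and 0.572 in KO, overlapping between genotypes. At 1 week it was 0.596, 0.643 and 0.908 in WT and 0.557, 0.693 and 0.744 in KO. These ratios of CPM were not tested.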
